A study of Mus musculus with 18 samples.

Results

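The cytosolic ribosomal protein genes were followed through 18 end-stage splenic tumours of Eμ-Myc mice, 9 from Prdm11 knockout (KO) and 9 from Prdm11 wild-type (WT) animals. A gene was a member when its probe set carried a single gene symbol that started with Rpl or Rps and named a ribosomal protein or a close relative. Ribosomal S6 kinases, pseudogene symbols and symbols of the form Rpl7l1 were left out, and of several probe sets for a gene the one brightest on average over all arrays was kept. These steps gave 62 genes of the 19938 measured. They held 54 standard ribosomal proteins, 21 of the small and 33 of the large subunit, and 8 other symbols. The 8 others were Rps27l, Rpl10l, Rpl3l, Rpl39l, Rps4l, Rpl32l, Rps19bp1 and Rps23rg1. The choice used gene names and mean level and not the genotypes. Of the 80 standard ribosomal proteins, 16 lay only on probe sets shared by several symbols, 1 (Fau) has a symbol outside the naming pattern, and 9 were not analysed here.

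Both genotypes carried the Eμ-Myc transgene, which places Myc under the enhancer of the immunoglobulin heavy chain and so in the B lineage, and both were on a C57BL/6 background. Mice of both genotypes were obtained after the Eμ-Myc strain had been bred to a Prdm11 knockout strain. No animal received a treatment, and ages are not given here. Each tumour came from its own mouse, was frozen and homogenised whole, and gave total RNA for 1 Affymetrix array. The tissue was therefore a mixture of tumour and other spleen cells, and in such bulk RNA fewer cells of a type and less RNA per cell cannot be told apart.

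The ribosome is the enzyme that translates mRNA into protein. Its small subunit reads the mRNA, and its large subunit forms peptide bonds and holds the tunnel through which the new chain leaves. Ribosomal proteins are made in near equal numbers, and many of their mRNAs start with a pyrimidine tract (a TOP sequence) through which mTOR signalling controls their translation. Myc is known for raising the transcription of ribosomal RNA, ribosomal proteins and assembly factors, and Eμ-Myc B cells lose part of their tumour-forming capacity when 1 copy of a large subunit gene is missing.

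The genotypes overlapped in all of these genes, and the differences between them were small. In limma, 0 of the 62 members passed an adjusted p of 0.05, a threshold that 0.00502% of all genes passed. At an unadjusted p of 0.05, 0 of 62 members lay beyond it, against 6.7% of all genes, 2.83% higher and 3.87% lower in KO tumours. The smallest unadjusted p of a member was 0.198, for Rpl3l, and its adjusted p was 0.821. The difference, KO minus WT on the log2 scale, ran from -0.17 for Rpl3l to 0.28 for Rpl12. Its median was -0.010 over the members and -0.030 over all genes, and it was positive in 25 of 62 members (40.3%) and in 40.8% of all genes. The 95% interval of limma excluded a 1.5-fold change either way in 59 of 62 members (95.2%) and in 84.6% of all genes. It excluded a 1.3-fold change in 51 members (82.3%) and in 56.4% of all genes. A smaller difference was not excluded by these data. These intervals hold for the kept probe sets only. Over all 218 probe sets of the members the difference ran from -0.17 to 0.32, and no intervals are given for the others. Many kept probe sets lay near the top of the scale, and the part of this in the intervals was not tested.

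**Figure D1:**
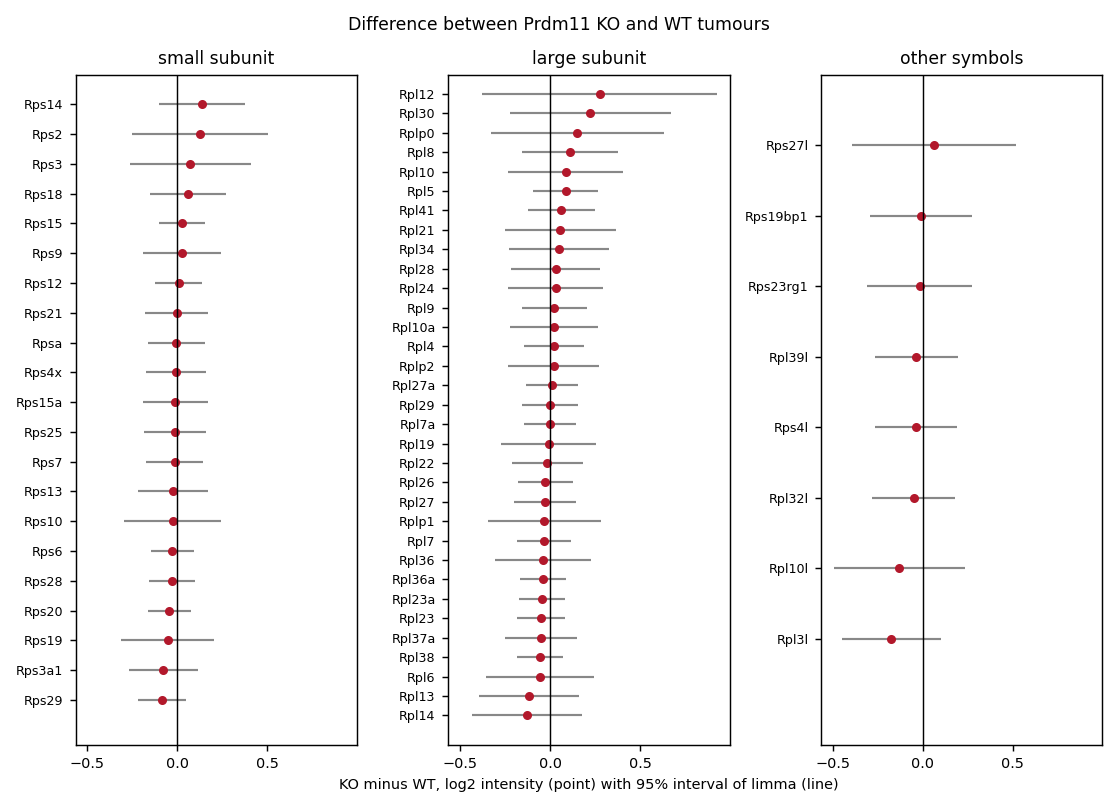
Difference in log2 intensity between KO and WT tumours (x axis) for each gene (rows), for the small subunit, the large subunit and the 8 other symbols. Points are limma estimates over 9 tumours each and lines their 95% intervals, and all 62 intervals include 0, the widest being that of Rpl12.

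Beside these genes, the arrays and the targeted gene behaved as follows. The array median intensities ran from 35.3 to 40.1 in KO tumours and from 35.8 to 41.7 in WT tumours, and WT tumour 3 had the lowest median correlation to the other arrays (0.924, with the other 17 at 0.957 to 0.975). Prdm11 averaged 5.21 ± 0.23 in KO tumours and 5.33 ± 0.26 in WT tumours (SD, n = 9 each; difference -0.12, limma adjusted p = 0.868). Whether that probe set reads inside the deletion is unknown here, and it therefore gives no check of the labels. Of the B cell markers, Cd24a averaged 12.24 ± 0.15 in KO and 12.23 ± 0.39 in WT tumours, Cd79b 9.62 ± 0.53 in KO and 9.59 ± 0.33 in WT tumours, and Cd79a 6.42 ± 0.34 in KO and 5.79 ± 0.85 in WT tumours. These levels do not tell tumour cells from normal B cells. The mean of 13 measured pan-B markers ran from 6.95 to 7.99 in KO and from 6.79 to 7.84 in WT tumours, and 8 were higher in KO at an unadjusted p below 0.05. The mean of 12 erythroid markers ran from 6.10 to 7.48 in KO and from 6.89 to 8.75 in WT tumours, and 8 were lower in KO at that p. None of either list passed the adjusted threshold. The part of these cells in the values of the ribosomal protein genes was tested only by a fit with the erythroid level as a covariate. In it 0 of 62 members passed the adjusted threshold and 2 were lower at an unadjusted p below 0.05. The share of all genes at that p in this fit is not given here, so the 2 are not read as a result.

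The promoters of 8 members are shown, chosen by how much the genes varied between tumours. Whether promoter sequence goes with that variation was not tested. The first 4 lines are the standard members with the largest spread on the kept probe set that have an entry in the RefSeq promoter table (GRCm38.p6), and the last 4 those with the smallest. The order depends on that probe set. Rps2 had an SD within genotype of 0.41 on it but 0.13 and 0.25 on others, and Rps15 had 0.071 on it but 0.23 and 0.43 on others. Whether a kept probe set reads the locus of the promoter shown or a copy elsewhere was not checked. Each line gives, for the first start listed, the 60 bases before and the 20 bases from the annotated start, 5′ to 3′ on the gene's strand. Capitals mark an unbroken run of at least 8 pyrimidines that overlaps the 10 bases on either side of the start.
Rpl12, stalk base, chr2:32961652-32961731, plus strand: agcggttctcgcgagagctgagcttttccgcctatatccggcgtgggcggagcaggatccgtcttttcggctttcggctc
Rplp0, stalk base, chr5:115559407-115559486, plus strand: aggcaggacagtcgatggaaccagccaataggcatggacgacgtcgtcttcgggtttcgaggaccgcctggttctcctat
Rps2, mRNA entry, chr17:24720003-24720082, plus strand: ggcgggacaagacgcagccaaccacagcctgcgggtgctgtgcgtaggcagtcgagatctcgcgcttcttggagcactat
Rps3, mRNA entry, chr7:99483690-99483769, minus strand: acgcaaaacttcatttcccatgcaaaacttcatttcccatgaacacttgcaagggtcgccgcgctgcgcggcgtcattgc
Rps6, small subunit, chr4:86857348-86857427, minus strand: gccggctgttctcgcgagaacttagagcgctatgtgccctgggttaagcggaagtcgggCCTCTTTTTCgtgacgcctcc
Rps15, small subunit head, chr10:80292371-80292450, plus strand: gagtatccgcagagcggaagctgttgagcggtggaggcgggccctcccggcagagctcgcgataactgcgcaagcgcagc
Rpl36a, large subunit, chrX:134585594-134585673, plus strand: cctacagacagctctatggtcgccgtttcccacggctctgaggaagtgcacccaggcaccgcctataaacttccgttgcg
Rpl38, large subunit, chr11:114668520-114668599, plus strand: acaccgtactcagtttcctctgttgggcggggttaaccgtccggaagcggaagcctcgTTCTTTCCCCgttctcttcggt

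A run of this kind was found in Rps6 and Rpl38, with 10 pyrimidines each, and in none of the other 6 windows shown. Of the 62 members, 50 had an entry, and of the 54 standard ones 43. A run of at least 8 pyrimidines at the start was present in 17 of these 43 promoters (39.5%) and in 16.1% of the promoters of 27025 genes, counting a gene when any of its annotated starts had it. TTCCGG, the core of ETS factor sites, was present on either strand of the 300-base window in 23 of 43 (53.5%) and in 16.7% of all genes. The E-box CACGTG, which Myc can bind, was present in 5 of 43 (11.6%) and 8.09% of all genes. AANATGG, the core of YY1 sites, was present in 13 of 43 (30.2%) and 18.2%, and TATAAA in 5 of 43 (11.6%) and 15.7%. These counts describe letters in a window and not binding, and no array value entered them.

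By level, most members were among the brightest probe sets of the array. The median level of the 54 standard genes was 12.38 on the log2 scale, against 5.39 over all genes, and 40 of them averaged 12 or above, a level that only 48 other genes reached. Rps20, a protein of the small subunit head, had the highest mean (13.07). The lowest standard member was Rpl12, at 6.68, followed by Rpl22 at 8.72. A probe set's brightness depends on its probes as well as on its transcript, so these values do not rank the genes by abundance. The other 8 symbols lay between 3.72 for Rpl39l and 11.80 for Rps27l, with a median of 5.54, near the median of all genes.

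Variation between tumours of 1 genotype was low for most members and high for a few. The SD within genotype had a median of 0.18 over the 54 standard genes, 0.21 over all 62 and 0.25 over all genes. Its median was 0.16 for the small subunit, 0.25 for the large subunit and 0.29 for the 8 other symbols. The spread went with level, since it was 0.16 in the 40 standard genes at 12 or above and 0.27 in the 14 below. Across the 54 genes the Spearman correlation of level and SD was -0.54, a description of genes on the same arrays. Values near the top of the scale (13.87 for the highest single value on any array) leave little room above them, and the part of this in the small spread was not tested. Set beside other genes within 0.5 of their own mean, 32 of 54 standard members had an SD below the median of those genes, with a median ratio of 0.86. The 48 other genes at 12 or above had a median SD of 0.20.

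**Figure D2:**
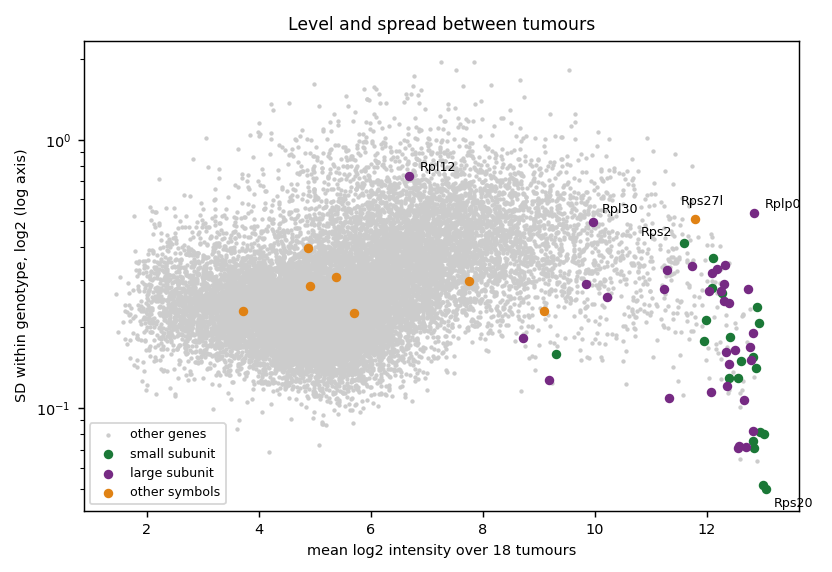
SD within genotype (y axis, log scale) against mean log2 intensity over 18 tumours (x axis) for every gene (grey) and the small subunit (green), large subunit (purple) and other members (orange). Most members lie at the right edge with SDs under 0.3, while Rpl12, Rplp0, Rps27l, Rpl30 and Rps2 lie above 0.4.

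Rpl12 and Rplp0 had the largest spreads, 0.73 and 0.53. Both form the base of the ribosomal stalk, the arm of the large subunit that recruits the GTPases of translation. Rpl12 had a lowest, median and highest level of 5.58, 6.89 and 7.54 in KO tumours, against 4.97, 6.81 and 7.52 in WT tumours. The lowest were KO tumour 4 and WT tumours 3 and 1, and the groups overlapped almost wholly. The difference of 0.28 (SE 0.31, 95% interval -0.38 to 0.93, limma adjusted p = 0.885) was within that spread, and it was 0.079 without WT tumour 3 and 0.43 without KO tumour 4. Rplp0 had a lowest, median and highest level of 12.49, 12.98 and 13.27 in KO tumours, against 10.93, 13.07 and 13.11 in WT tumours. The low WT value was tumour 3 alone, whereas the other 8 WT tumours lay at 12.64 or above, inside the range of the KO tumours. Its difference of 0.15 (SE 0.23, limma adjusted p = 0.917) turned to -0.079 without WT tumour 3, and its SD was then 0.22. The other probe set of Rplp0, with a mean of 11.19, had an SD of 0.49 and a difference of 0.0084.

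The remaining stalk proteins, Rplp1 and Rplp2, are the acidic pair carried by Rplp0. Rplp1 averaged 11.72 ± 0.40 in KO and 11.75 ± 0.26 in WT tumours (SD, n = 9 each), with KO tumour 3 highest at 12.44 and KO tumour 4 lowest at 11.01. Rplp2 averaged 10.23 ± 0.20 in KO and 10.20 ± 0.31 in WT tumours, with WT tumour 1 lowest at 9.54. Of the 4 stalk genes, 3 had a positive and 1 a negative difference, with a median of 0.086, and 0 of 4 passed either threshold. KO tumour 4 was the lowest KO tumour for Rpl12, Rplp1 and Rplp2, and WT tumour 3 the lowest WT tumour for Rpl12, Rplp0 and Rplp1.

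Around the mRNA entry channel of the small subunit lie Rps2, Rps3 and Rps9. Rps2 had a lowest, median and highest level of 10.95, 11.78 and 12.09 in KO tumours, against 10.36, 11.65 and 11.89 in WT tumours. The lowest were WT tumour 3 and KO tumours 8 and 4, and the remaining tumours of both genotypes lay together. The difference of 0.13 (SE 0.18, limma adjusted p = 0.914) became -0.021 without WT tumour 3. These values hold for the kept probe set of Rps2, with a mean of 11.60 and an SD of 0.41. Its other probe sets, with means of 11.48 and 10.94, had SDs of 0.13 and 0.25 and differences of -0.053 and 0.020. The lowest correlation between Rps2 probe sets was -0.23. Rps3, which also has a role in DNA repair, had a lowest, median and highest level of 11.36, 12.31 and 12.49 in KO tumours, against 11.50, 12.16 and 12.51 in WT tumours, which is 0.07 higher in KO (SE 0.16, limma adjusted p = 0.951). Its lowest tumours were KO tumour 4 and WT tumours 1 and 2, whereas WT tumour 3, the lowest for Rps2, lay at 12.04. Rps9 had a lowest, median and highest level of 11.71, 12.05 and 12.21 in KO tumours, against 11.39, 12.02 and 12.23 in WT tumours. Fau, whose product carries the small subunit protein eS30 fused to a ubiquitin-like domain, averaged 11.57 ± 0.51 in KO and 11.49 ± 0.45 in WT tumours (limma adjusted p = 0.961). On the kept probe sets all 4 genes had positive differences, with a median of 0.076, and 0 passed either threshold.

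Rpl30 is a small protein of the large subunit, known in yeast to regulate the splicing of its own transcript. It had a lowest, median and highest level of 9.55, 10.05 and 10.78 in KO tumours, against 8.83, 10.06 and 10.58 in WT tumours. WT tumours 1 and 3 were low and KO tumour 9 was high, while the medians nearly coincided. The difference was 0.22 (SE 0.22, limma adjusted p = 0.868), and it was 0.095 without WT tumour 1 and -0.014 with the erythroid marker level as a covariate. Rps27l, a paralog of Rps27 induced by p53, had a lowest, median and highest level of 10.78, 12.01 and 12.43 in KO tumours, against 10.94, 12.01 and 12.15 in WT tumours. KO tumours 3 and 4 and WT tumours 1 and 2 lay below all others, and the groups overlapped. Its difference was 0.06 (SE 0.22, limma adjusted p = 0.977).

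**Figure D3:**
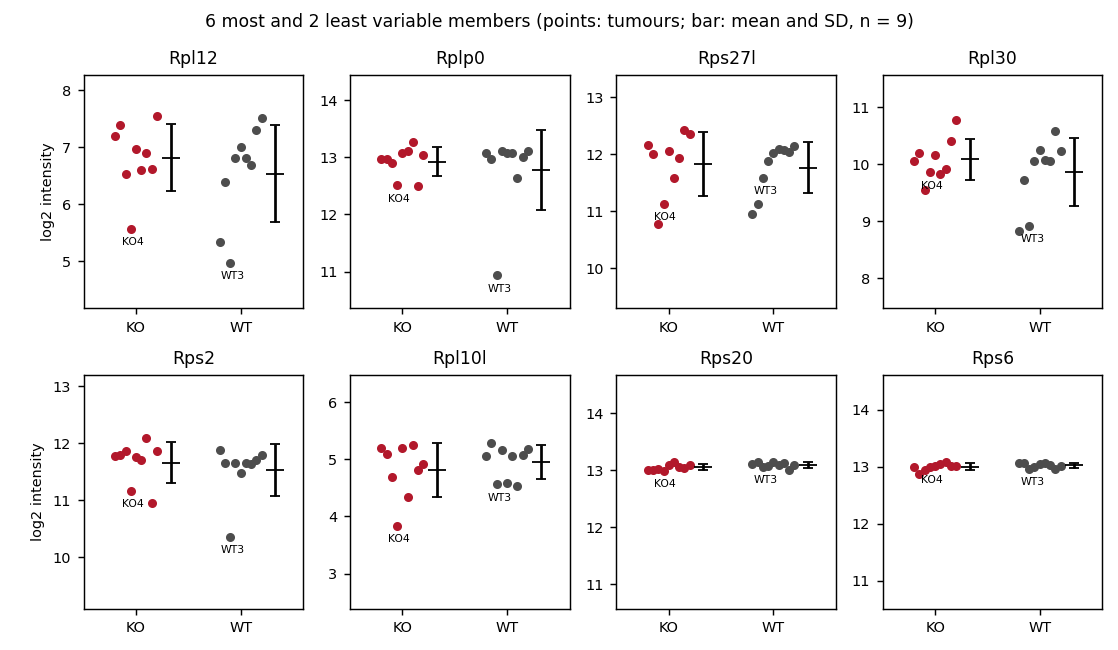
Log2 intensity (y axes, each spanning about 4 to 5 units around the gene) in KO (red) and WT (grey) tumours for the 6 members with the largest and the 2 with the smallest SD. Each point is 1 tumour and each bar the mean and SD (n = 9), with KO tumour 4 and WT tumour 3 labelled. The 2 genotypes overlap in all 8 panels, and Rps20 and Rps6 stay near 13.

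At the other end, Rps20 and Rps6 varied least, with SDs of 0.050 and 0.051. Rps20 had a lowest, median and highest level of 12.99, 13.03 and 13.14 in KO tumours, against 13.00, 13.09 and 13.14 in WT tumours, so that the ranges nearly coincided. Rps6, the substrate of the S6 kinases, had a lowest, median and highest level of 12.87, 13.00 and 13.08 in KO tumours, against 12.96, 13.02 and 13.07 in WT tumours. KO tumour 2 was lowest and the other tumours were within about the same narrow band. The difference was -0.04 (SE 0.06, limma adjusted p = 0.903) for Rps20 and -0.03 (SE 0.06, limma adjusted p = 0.948) for Rps6. Rps15, a protein of the small subunit head, Rpl36a, which is X-linked, Rpl23a, which sits at the tunnel exit, and Rpl38, which in mice is needed for translation of some Hox mRNAs, followed with SDs of 0.071 to 0.072. Rps15 was in this group on the kept probe set only. Its other probe sets had SDs of 0.23 and 0.43 and differences of 0.16 and 0.25, against 0.025 on the kept one. The standard error of limma for Rps20 is larger than its own spread alone would give, because limma draws each gene's variance towards that of all genes.

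Among the small subunit genes with the smallest p, Rps14 was highest in KO relative to WT. Loss of 1 copy of its human counterpart is linked to the anaemia of the 5q- syndrome. Rps14 had a lowest, median and highest level of 12.70, 12.98 and 13.28 in KO tumours, against 12.33, 12.92 and 13.09 in WT tumours. WT tumours 1 and 2 were the lowest and KO tumour 7 the highest, and the rest overlapped. The difference was 0.14 (SE 0.11, 95% interval -0.10 to 0.37, limma adjusted p = 0.840) on the kept probe set. On the other probe set of Rps14, with a mean of 11.66, it was 0.32, with an SD of 0.56. Rps29, a zinc-binding protein of the small subunit head, had a lowest, median and highest level of 12.76, 12.94 and 13.02 in KO tumours, against 12.87, 13.00 and 13.11 in WT tumours. In 1 of 9 KO tumours Rps29 was above the WT median, yet the ranges overlapped and the difference was -0.08 (SE 0.06, 95% interval -0.22 to 0.05, limma adjusted p = 0.825). Rps3a1, which lies at the mRNA exit, averaged 11.92 ± 0.20 in KO and 11.99 ± 0.16 in WT tumours (difference -0.08, limma adjusted p = 0.890).

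Among the large subunit genes, Rpl5 carries the 5S rRNA and, together with Rpl11, binds Mdm2 when ribosome assembly is disturbed. Rpl5 had a lowest, median and highest level of 12.11, 12.46 and 12.50 in KO tumours, against 11.92, 12.38 and 12.51 in WT tumours. KO tumour 3 was low among the KO tumours and tumours 3, 1 and 2 among the WT tumours. The difference was 0.09 (SE 0.09, limma adjusted p = 0.872), and 0.037 without WT tumour 3. Rpl8, near the peptidyl transferase centre, averaged 11.30 ± 0.32 in KO and 11.19 ± 0.23 in WT tumours (difference 0.11, limma adjusted p = 0.890). Rpl41, the smallest ribosomal protein, averaged 12.80 ± 0.17 in KO and 12.74 ± 0.17 in WT tumours (difference 0.06, limma adjusted p = 0.912). Lower means in KO were found for Rpl13, Rpl14, Rpl38 and Rpl23. Rpl13 averaged 12.25 ± 0.38 in KO and 12.37 ± 0.14 in WT tumours, with KO tumours 4 and 8 low and 6 of 9 KO tumours above the WT median. Its difference of -0.12 was -0.030 without KO tumour 4. Rpl14 averaged 11.23 ± 0.34 in KO and 11.36 ± 0.31 in WT tumours (difference -0.13), and Rpl38 and Rpl23, a further Mdm2 binder, had differences of -0.05 each. The adjusted p in limma lay between 0.885 and 0.900 for these 4 genes.

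Differences were small in the lists by known role too, split in sign in the first list below and mostly negative in the others. Over all genes 40.8% of differences were positive. Of 8 measured genes whose products bind Mdm2 or carry the 5S rRNA, 4 had positive and 4 negative differences, from -0.05 for Rpl23 to 0.14 for Rps14. Of 8 measured genes mutated in Diamond-Blackfan anaemia, a human failure of red cell production, 1 (Rpl5) had a positive and 7 had negative differences, with a median of -0.028. They included Rps19, the gene most often mutated in that disease, at 12.25 ± 0.24 in KO and 12.30 ± 0.29 in WT tumours, and Rps28 at 12.82 ± 0.07 in KO and 12.85 ± 0.08 in WT tumours. All 4 measured genes at the rim of the exit tunnel had negative differences, between -0.04 for Rpl23a and -0.01 for Rpl19. No gene of these lists passed either threshold, and the all-gene median of -0.030 lies among these values. The lists share members, such as Rps7, Rpl26 and Rpl5.

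The subunits were compared through the mean, over their standard members, of each gene's log2 level minus its own mean over 18 tumours, which removes differences in probe brightness. The small subunit mean was 0.00094 ± 0.12 in KO and -0.00094 ± 0.09 in WT tumours (SD, n = 9 each). The large subunit mean was 0.0081 ± 0.15 in KO and -0.0081 ± 0.15 in WT tumours. The large minus small value ran from -0.054 to 0.089 in KO tumours, against -0.22 to 0.11 in WT tumours. Its difference between genotypes was 0.014 (SE 0.033), smaller than the spread between tumours of either genotype. Without WT tumour 3 it was -0.012, and the large subunit difference was -0.024, against 0.016 with all tumours. WT tumour 3 was the lowest, with a large subunit mean of -0.33 and a small subunit mean of -0.11. By counts, 17 of 33 large subunit genes and 7 of 21 small subunit genes had a positive difference, with medians of 0.00067 and -0.010.

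**Figure D4:**
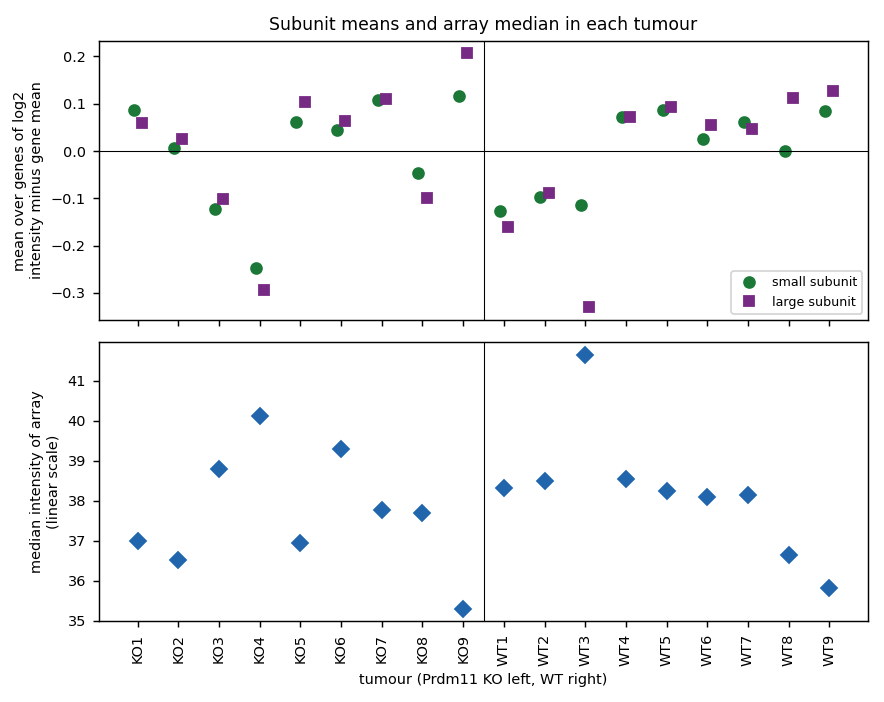
Mean over genes of log2 intensity minus the gene's mean (upper panel, y axis) for the small (green circles, 21 genes) and large subunit (purple squares, 33 genes) in each tumour (x axis, KO left, WT right), above the median intensity of each array on a linear scale (lower panel). Large minus small is furthest from 0 in WT tumour 3 (-0.22), followed by WT tumour 8 (0.11) and KO tumour 9 (0.089). KO tumour 4 and WT tumour 3 have the lowest large subunit means and the highest array medians.

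Tumours differed more than genotypes did. The mean over all 54 standard genes ran from -0.28 in KO tumour 4 to 0.17 in KO tumour 9, and 6 tumours lay below -0.05, 3 KO (tumours 4, 3 and 8) and 3 WT (tumours 3, 1 and 2). The other 12 lay between 0.018 and 0.17. KO tumour 4, with 48 of 54 genes below their own mean, had the lowest value of all 18 tumours in 14 genes, and KO tumour 9, with 47 of 54 above, had the highest in 11. WT tumour 3 was lowest in 13 genes and highest in 5, so that its genes lay far apart. Their SD around the tumour's own mean was 0.49, against 0.078 to 0.27 in KO tumours and a median of 0.16 in WT tumours. KO tumour 4 and WT tumour 3 also had the highest array medians, 40.1 and 41.7, and KO tumour 9 and WT tumour 9 the lowest, 35.3 and 35.8, with standard gene means of 0.17 and 0.11. The part of the array in these tumour levels was not tested. With KO tumour 4 and WT tumour 3 both left out, which was added once the data had been seen, 0 members passed the adjusted threshold and the median SD over the 62 members was 0.16.

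In KO tumour 4 and WT tumour 3 the size of the deviation differed by gene. Below their means were 48 of the 54 standard genes in KO tumour 4 and 36 in WT tumour 3, with 34 in both. With so many genes low in each tumour, a large shared number follows from these counts alone. It does not show a common set of low genes. In KO tumour 4 the standard genes furthest below their own mean were Rpl12 at -1.10, Rpl13 at -0.76, Rps3 at -0.76, Rps10 at -0.74 and Rplp1 at -0.72. In WT tumour 3 they were Rplp0 at -1.92, Rpl12 at -1.71, Rps2 at -1.24, Rpl21 at -1.14, Rpl10 at -1.13 and Rpl30 at -1.05. These are values of the kept probe sets. Over all probe sets of a gene, the SD ran from 0.088 to 0.49 for Rpl21, 0.15 to 0.41 for Rpl10 and 0.13 to 0.41 for Rps2. Some probe sets of these genes thus varied too little to hold a drop of this size. Rpl36 shows the contrast between the pair: it was at -0.66 in KO tumour 4 and at 0.32 in WT tumour 3. In WT tumour 1, Rpl12 and Rpl30 were low together, at -1.33 and -1.14, while Rplp0 and Rps2 were above their means.

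**Figure D5:**
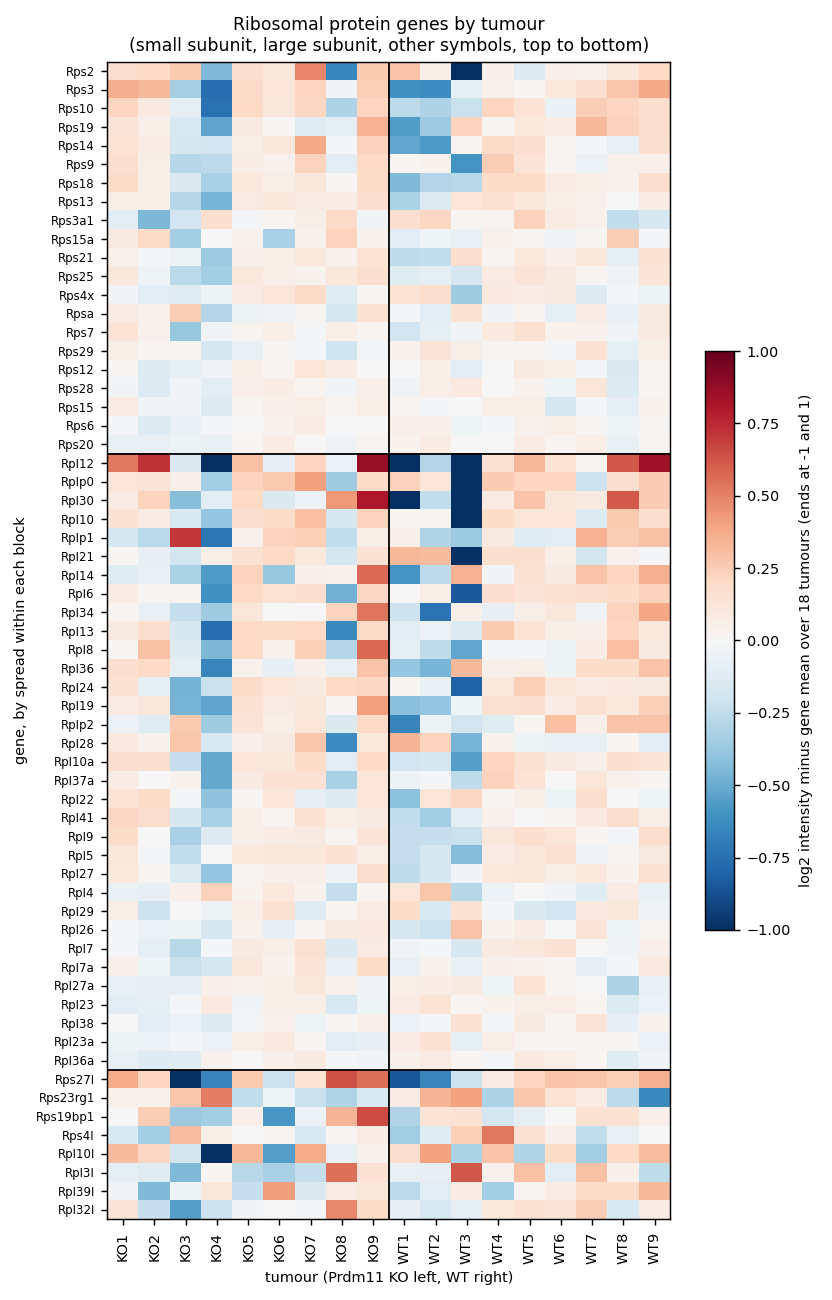
Log2 intensity minus the gene's mean over 18 tumours (colour, clipped at -1 and 1) for each member (rows, small subunit, large subunit and other symbols from top to bottom, by spread within each block) and tumour (columns, KO left, WT right). The columns of KO tumour 4 and WT tumour 3 hold most of the dark blue cells, with Rpl12 past -1 in both, and no block of columns separates KO from WT.

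Members tended to vary together from tumour to tumour. With each genotype centred on its own mean, the median Pearson correlation over 1431 pairs of standard genes was 0.29 across 18 tumours, and 73.7% of pairs were positive. It was 0.29 within the small subunit, 0.32 within the large subunit and 0.28 between subunits, so the 2 subunits were not set apart. Of the 54 genes, 48 correlated positively with the mean of the other 53, with a median of 0.60, and 32 exceeded 0.5. Rpl10a (0.96), Rps18 (0.90) and Rps10 (0.89) followed the mean most closely. Rpl23 (-0.31), Rps3a1 (-0.30) and Rpl27a (-0.28) ran against it. These values describe genes that share arrays and array-wide shifts, and no test is attached to them. They were not computed for other bright genes, so they do not show a trait particular to ribosomal protein genes.

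Several relatives of ribosomal proteins are used in particular tissues. Rpl3l replaces Rpl3 in muscle, Rpl10l is an autosomal copy of X-linked Rpl10 used in the male germ line, and Rpl39l is best known from testis. Rpl3l had a lowest, median and highest level of 4.48, 4.79 and 5.47 in KO tumours, against 4.66, 4.96 and 5.54 in WT tumours. KO tumour 8 and WT tumour 3 were the highest of their groups, and the difference was -0.17 (SE 0.13, limma adjusted p = 0.821). Rpl10l had a lowest, median and highest level of 3.84, 4.93 and 5.25 in KO tumours, against 4.54, 5.07 and 5.28 in WT tumours, with KO tumour 4 lowest (limma adjusted p = 0.905). Rpl39l averaged 3.70 ± 0.24 in KO and 3.74 ± 0.22 in WT tumours, and Rps4l averaged 5.68 ± 0.18 in KO and 5.72 ± 0.26 in WT tumours. Rps23rg1, a gene that arose from a copied Rps23 mRNA, averaged 5.37 ± 0.27 in KO and 5.39 ± 0.35 in WT tumours, and its correlation with the mean of the standard genes was -0.68. Rps19bp1, which encodes a nucleolar partner of Rps19, averaged 7.75 ± 0.39 in KO and 7.76 ± 0.16 in WT tumours. Of the 8 other symbols, 7 had negative differences.

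Of 8 listed pairs of a ribosomal protein and its paralog, 3 could be measured on single-symbol probe sets. Rpl10 and Rpl10l had a Pearson r of 0.52 over 18 tumours (permutation p = 0.0411, 0.123 adjusted over 3 pairs) and a Spearman rho of 0.50 (permutation p = 0.0374, adjusted 0.112). The r was 0.71 in the KO and 0.58 in the WT tumours, and 0.39 without KO tumour 4 and WT tumour 3, the tumours furthest from the median of Rpl10. The probe sets of such near copies may share signal. Rpl7 and Rpl7l1 had an r of 0.066 (permutation p = 0.794) and a rho of 0.055 (permutation p = 0.830). Rps4x and Rps4l had a rho of -0.16 (permutation p = 0.515) and an r of -0.16 (permutation p = 0.522), and the r was 0.092 without KO tumour 7 and WT tumour 3. The adjusted p of these was 0.772 to 0.830.

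Other probe sets of the same genes were read as a check within the array. The members had 218 probe sets, and 39 members had more than 1, up to 14 for Rps12. For these 39, the range of the KO minus WT difference over a gene's probe sets had a median of 0.049, and 11 genes had differences of both signs. The widest range was 0.31, for Rpsa, the laminin-binding protein of the small subunit. In 33 of 39 genes the dimmest probe set varied more between tumours than the brightest, with median SDs of 0.28 and 0.16. Ribosomal protein genes have many processed pseudogenes, and probe sets of a gene and its copies may share signal. The 3 probe sets of Rpl41 had the same mean, SD and difference, as had several of Rps12. Such repeats are counted among the 218 and in the ranges, so agreement between probe sets is not always independent.

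The rest of the translation apparatus was placed beside these genes by lists of known function. For comparison, differences were positive in 40.8% of all genes, and in 60.3% of the 867 other genes with a mean level of 9 to 12, whose median difference was 0.049. Of 6 elongation factor genes, 6 had positive differences, with a median of 0.17, among them Eef2, the translocase, at 9.89 ± 0.37 in KO and 9.48 ± 0.57 in WT tumours (limma adjusted p = 0.763). Of 11 measured subunits of the initiation factor eIF3, 9 were positive, with a median of 0.25, among them Eif3b at 8.12 ± 0.39 in KO and 7.63 ± 0.68 in WT tumours (limma adjusted p = 0.755). Of 25 genes for assembly factors of the subunits, 23 were positive, with a median of 0.14, and Rps19bp1 was 1 of the 2 that were not. The median level of these 25 was 7.75 (5.50 to 10.13), mostly below the range of 9 to 12, and no share at their level was taken. The assembly factors include Tsr1, which acts late in small subunit maturation, at 7.86 ± 0.18 in KO and 7.52 ± 0.50 in WT tumours (limma adjusted p = 0.761). Of 15 other genes with TOP mRNAs, 12 were positive, with a median of 0.10, and the initiation factor gene Eif4b averaged 9.20 ± 0.31 in KO and 8.79 ± 0.48 in WT tumours (limma adjusted p = 0.719). In none of these lists did a gene pass the adjusted threshold, and at an unadjusted p below 0.05 the lists held 1 gene, Eif4b.

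Levels of the regulators of these genes overlapped too. Myc averaged 10.20 ± 0.37 in KO and 10.01 ± 0.52 in WT tumours (difference 0.19, SE 0.20, limma adjusted p = 0.873), on an array that does not tell the transgene from the endogenous gene. Its partner Max and the p53 inhibitor genes Mdm2 and Mdm4 had differences of 0.26, 0.11 and 0.27. Of 12 genes of mTOR signalling and TOP mRNA control, 8 were positive, with a median of 0.12, and Mtor alone had an unadjusted p below 0.05, at 6.33 ± 0.45 in KO and 5.99 ± 0.26 in WT tumours (limma adjusted p = 0.739). Larp1, which binds TOP mRNAs, averaged 8.12 ± 0.38 in KO and 7.73 ± 0.55 in WT tumours (limma adjusted p = 0.770). The difference between these lists and the ribosomal protein genes was not tested.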

How the data were processed

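The authors deposited linear probe set intensities, which they made with RMA according to the submitters' processing notes. Its version, the genome build and any scan batches are not given here. Intensities were transformed to log2 with no pseudocount, as foreseen for linear values. Of 35556 probe sets, 21789 had 1 symbol in the platform annotation, 1621 several and 12146 none, and 21698 gene identifiers matched the RefSeq gene table (GRCm38.p6). The number of arrays limits the precision. KO and WT tumours were compared with limma 3.58.1 (R 4.3.3), lmFit and eBayes, over all 19938 genes with Benjamini-Hochberg adjustment. Subunit means, spreads and correlations between members are descriptions with no test. Paralog pairs were tested by two-sided permutation with 100000 resamples. Other steps ran in Python 3.11.15 (scipy 1.17.1, pandas 2.3.3, numpy 2.4.6, and matplotlib 3.10.9 for figures). The limma step was tested on simulated data. The members and lists were chosen with earlier results of these data known. By rule, the text names the 8 genes higher and the 8 lower in KO with the smallest p, the 6 with the largest and smallest SD, examples of each list, and Myc and Prdm11. Other members were named after their values were seen. Alternatives covered probe set choice, scaling, the dim gene filter, the variance model, array weights, the replicate block, the erythroid level, the member rule and left-out tumours. The replicate numbers did not pair the tumours.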

Additional observations from a re-analysis of the deposited data

Results flagged for a closer look

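In 17 of 130 groups of 9 tumours, the lowest or highest tumour stood apart from the rest by Dixon's 95% limit. That limit flags about 1 in 20 independent groups, here 6.5. The groups share the same arrays and are not independent, and the share over all genes is not given here. The count is therefore no result about ribosomal protein genes in particular. In WT tumour 3 these were Rpl10 at 11.19 (nearest other WT tumour 12.19), Rpl21 at 11.06 (12.01), Rpl24 at 11.45 (12.19), Rpl6 at 11.27 (12.11), Rplp0 at 10.93 (12.64), Rps2 at 10.36 (11.47) and Rps9 at 11.39 (11.93). The large minus small subunit value of that tumour, -0.22, stood apart as well (nearest -0.034). WT tumour 3 also had the array with the lowest correlation to the others, and the part of that array in these values was not tested. The values are those of the kept probe sets, and some other probe sets of Rpl10, Rpl21 and Rps2 varied far less.

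In KO tumour 4, Rpl36 at 12.09 (nearest other KO tumour 12.65), Rps15 at 12.71 (12.83) and Rps21 at 12.47 (12.78) were low. In KO tumour 3, Rpl5 at 12.11 (12.34) and Rps7 at 12.18 (12.53) were low, and in KO tumour 8, Rpl28 at 11.67 (12.15). In WT tumour 1, Rpl22, a gene deleted in some human T cell leukaemias, was low at 8.30 (8.66). In WT tumour 8, Rpl27a was low at 12.36 (12.59) and Rps15a was high at 9.55 (9.35).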

How the results depend on the processing

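In limma, 0 members passed the adjusted threshold in every alternative run, and the smallest adjusted p of a member lay between 0.375 and 0.965. With single tumours left out, the median member difference was lowest at -0.031 (WT tumour 1) and highest at 0.025 (KO tumour 4), and it ran from -0.030 to 0.0088 in settings that kept all tumours or left out a pair. The median of all genes was -0.030, -0.026 after quantile normalization and -0.010 after centring on array medians. The large minus small difference was -0.012 to 0.029 over left-out tumours (lowest without WT tumour 3), and from -0.027 to 0.014 elsewhere. The median SD of members was 0.16 to 0.28, highest with the most variable probe set of each gene. Reading the rule on symbols literally left 56 members. Members lower at an unadjusted p below 0.05 numbered 1 without KO tumour 8 and 2 with the erythroid covariate. The shares of all genes in these fits are not given here. The erythroid covariate turned Rpl30 to -0.014. Rps2 ran from -0.021 to 0.22 and Rplp0 from -0.079 to 0.21 over left-out tumours, both lowest without WT tumour 3, and with KO tumour 4 also left out Rplp0 was at -0.027. The causes were not tested.

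Of the paralog pairs, Rpl10 and Rpl10l had an r of 0.64 after quantile normalization (permutation p = 0.0352 adjusted over 3 pairs) and of 0.45 to 0.66 over left-out tumours, with an adjusted permutation p of 0.0178 without WT tumour 3 and an r of 0.39 without both tumours. Rpl7 and Rpl7l1 had -0.40 after quantile normalization, -0.026 without both tumours and -0.018 to 0.13 over left-out tumours. Rps4x and Rps4l had 0.17 with probe sets averaged, 0.033 without both tumours and -0.34 to 0.018 over left-out tumours.

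With the replicate number as a block, 0 members passed, the smallest adjusted p was 0.770 and the median member difference stayed at -0.010. The numbers did not pair the tumours. Deviations of same-numbered tumours correlated at -0.23 to 0.49, above 0.1 in 4 of 9 pairs, and 1 of 9 KO tumours correlated best with its own number. Brightness near the top of the scale and single arrays limit these results, as do 25 standard genes not analysed here, and whole-tumour RNA gives no level per cell type.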
